A study of Mus musculus with 6 samples.

Results

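The genes described here act in the main cytoplasmic route of mRNA decay: *Cnot1*, *Cnot3*, *Cnot6*, *Cnot7* and *Cnot8* of the CCR4-NOT deadenylase, the decapping genes *Dcp2*, *Dcp1a*, *Edc4* and *Ddx6*, and the exonuclease gene *Xrn1*. These 10 genes were listed by name, with earlier results of these data known. All 10 were among the 16745 genes tested, of 52230 genes summed from the data. The tissue was hippocampus at birth (P0), and poly(A)-selected RNA was sequenced with strand information. The *Mov10* Deletion group had 3 libraries and the WT group had 3, each made from pooled hippocampi of at least 2 pups. *Mov10* Deletion mice carried floxed *Mov10* (exons 6 and 7) with Cre recombinase expressed from *Emx1*, together with a germline mutant *Mov10* allele from a heterozygous line. WT mice were C57BL/6. The authors describe *Emx1*-Cre as depleting MOV10 in excitatory neurons of neocortex and hippocampus. With this Cre alone they found a smaller loss of MOV10 than they had predicted. Which cells of the hippocampus kept an intact floxed allele was not measured here. The sex and litter of the pups in each pool were not given in the sources used here. MOV10 is an RNA helicase that works with AGO2 in microRNA-mediated silencing. The authors of the study report that it also shields some mRNAs from AGO2. The comparison asks whether the mRNAs of the decay machinery differed when *Mov10* was reduced.

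Most mRNAs are degraded after their poly(A) tail has been shortened. The CCR4-NOT complex does most of this shortening, with CNOT1 as the scaffold and a pair of nuclease subunits on it, one of the Ccr4 type (CNOT6 or CNOT6L) and one of the Caf1 type (CNOT7 or CNOT8). The helicase DDX6 binds CNOT1 and hands the mRNA on to decapping, where DCP2 removes the cap with the help of DCP1A and the scaffold EDC4, and XRN1 then digests the body from its 5′ end. Several of these proteins gather in cytoplasmic granules called P-bodies. MicroRNAs reach the same machinery through AGO and TNRC6 proteins, and other RNA-binding proteins, such as Pumilio, bring CCR4-NOT to mRNAs that carry their binding element.

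Of the 10 genes, *Dcp2* was higher in *Mov10* Deletion hippocampi, *Cnot8* and *Cnot3* were lower, and 7 did not pass the test (limma-trend with 2 factors of unwanted variation, Benjamini-Hochberg adjusted p under 0.05). Over all tested genes the same test called 4137 genes (24.7%), with 2104 (12.6%) higher in *Mov10* Deletion and 2033 (12.1%) lower, so 3 of 10 is near the share among all genes. Without the factors, limma-trend called 3510 genes (21%) and only *Dcp2* and *Cnot8* among the 10. The differences were small: the fitted log2 fold changes of the 10 genes ran between -0.20 and 0.25, with a median of -0.04 beside 0.01 over all tested genes. Under upper-quartile normalization the share of higher calls over all genes was 60.9%, beside 50.9% with TMM (trimmed mean of M-values) scaling, and *Cnot3* was then not called.

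Per unit of transcript length, *Cnot7* was the most abundant of the 10 in every library, at 187 to 192 TPM (abundance corrected for length and library size) in *Mov10* Deletion and 200.2 to 211 TPM in WT. *Ddx6* followed with 166 to 174 TPM in *Mov10* Deletion and 160.1 to 167 TPM in WT, and *Cnot6* with 114 to 127 TPM in *Mov10* Deletion and 124 to 129 TPM in WT. The *Cnot7* level included Cnot7-207, a transcript of 406 nucleotides with no defined coding sequence. Cnot7-207 held 17.8% of the *Cnot7* TPM in *Mov10* Deletion and 18.7% in WT, from only 239.7 to 312.5 counts per library. The place of *Cnot7* above *Ddx6* therefore rested partly on this short transcript. *Cnot1* lay between 79.4 and 97.2 TPM and *Cnot8* between 75.6 and 92.7 TPM over the 6 libraries, so the order of these 2 genes could not be told from their levels. *Edc4* (52.6 to 60.2 TPM) and *Cnot3* (49.2 to 56.4 TPM) likewise overlapped. *Dcp2*, the only catalytic decapping gene of the list, had 30.04 to 35.2 TPM in *Mov10* Deletion and 24.9 to 31.5 TPM in WT, and overlapped *Xrn1* (23.3 to 25.8 TPM). Of the *Dcp2* TPM, 36.9% in *Mov10* Deletion and 38.0% in WT came from Dcp2-202, a transcript of 420 nucleotides. *Dcp1a* was lowest in every library, with 11.4 to 14.0 TPM in *Mov10* Deletion and 11.6 to 12.2 TPM in WT. The levels thus spanned the middle and top of the tested genes, from above 42.9% of them in the case of *Dcp1a* to above 95.3% in the case of *Cnot7*.

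**Figure D1:**
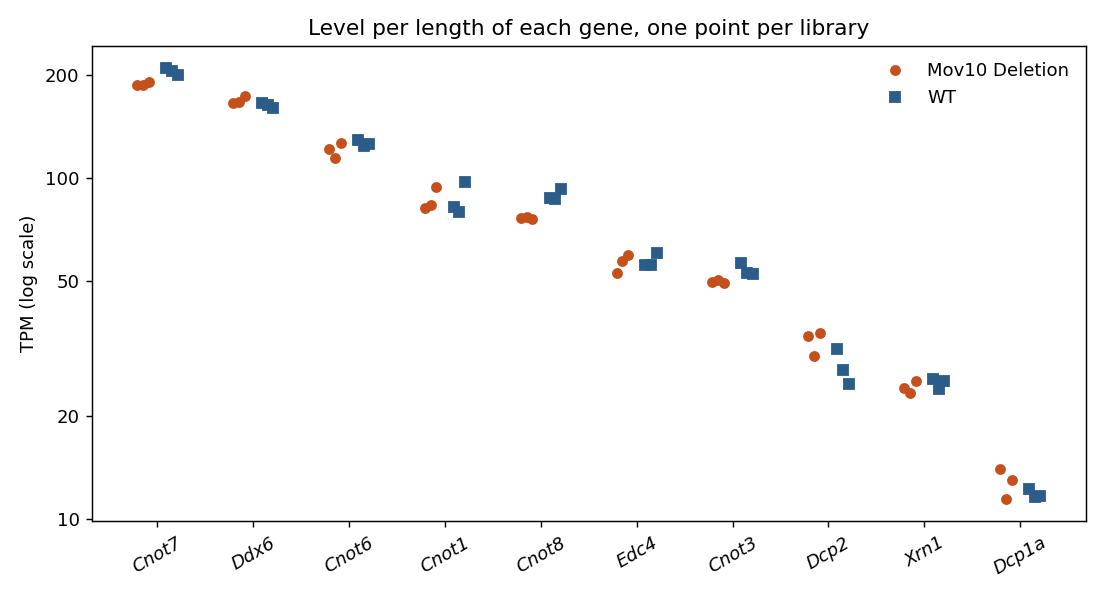
TPM of each gene (log scale) with 1 point per library, *Mov10* Deletion as circles left of WT as squares, ordered by the mean over all 6 libraries. *Cnot7* is highest in every library and *Dcp1a* lowest, and *Cnot8* has its 3 *Mov10* Deletion points below its 3 WT points.

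*Cnot8* and *Cnot7* encode the alternative Caf1-type nucleases of CCR4-NOT. *Cnot8* (ENSMUSG00000020515.15, GRCm39 chr11:57994748-58031515, plus strand) had 62.5, 65.0 and 62.1 CPM (counts scaled to the library total, TMM-normalized) in the *Mov10* Deletion libraries and 70.2, 72.6 and 80.1 CPM in the WT libraries. Every *Mov10* Deletion library was below every WT library, and WT replicate 3 was the highest of all. The fitted level in *Mov10* Deletion was 0.873 times that in WT (log2 fold change -0.20, SE 0.04, 95% interval -0.29 to -0.10, adjusted p = 0.0124 by limma-trend; 0.0176 without the factors). *Cnot7* had 123, 124 and 122 CPM in *Mov10* Deletion, against 131, 130.2 and 132 CPM in WT. These groups did not overlap either, but the log2 fold change of -0.09 (95% interval -0.17 to -0.01) did not pass after adjustment (limma-trend adjusted p = 0.0822). *Cnot8* passed in 21 of 24 other settings of the test, whereas *Cnot7* passed in 2, one of them without *Mov10* Deletion replicate 2 (adjusted p = 0.0233 by limma-trend). The adjusted p of *Cnot8* was 0.107 by limma-trend with a score of sex-linked genes in place of the factors, and 0.0773 without a filter on low counts.

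The share of *Cnot7* in the summed TPM of the Caf1-type pair averaged 71.3% ± 0.43 (SD) in 3 *Mov10* Deletion libraries and 69.8% ± 1.30 (SD) in 3 WT libraries. All *Mov10* Deletion libraries, at 71.1%, 70.9% and 71.7%, were above the WT libraries, at 70.8%, 70.4% and 68.4%. The exact two-sided permutation test gave p = 0.1, which is the smallest p that 3 libraries against 3 allow (0.3 after adjustment over 3 paralogue pairs). Without WT replicate 3 the difference was 0.67 percentage points, against 1.42 with it. In the Ccr4-type pair, *Cnot6* made up 81.9% ± 0.45 (SD) of the TPM in 3 *Mov10* Deletion libraries and 82.7% ± 0.50 (SD) in 3 WT libraries (exact permutation p = 0.2, adjusted 0.3). Together the 4 nuclease genes summed to 413.1 ± 8.54 TPM (SD) in the 3 *Mov10* Deletion libraries and 448 ± 6.97 TPM (SD) in the 3 WT libraries, and *Cnot7* held the largest share and *Cnot6l* the smallest in every library. The TPM of *Cnot7* in these shares and sums included Cnot7-207, the short transcript with no defined coding sequence.

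*Cnot6* and its paralogue *Cnot6l* did not pass the test. *Cnot6* had 190.5, 173 and 186 CPM in *Mov10* Deletion and 192, 184 and 196 CPM in WT, with a log2 fold change of -0.06 (95% interval -0.15 to 0.04, limma-trend adjusted p = 0.352). *Cnot6l* had 62.0, 53.4 and 57.8 CPM in *Mov10* Deletion and 58.1, 57.2 and 60.1 CPM in WT (log2 fold change -0.02, 95% interval -0.12 to 0.08). The groups of both genes overlapped.

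*Cnot1* and *Cnot3* encode the scaffold and a subunit of the NOT module, which docks RNA-binding proteins on the complex. *Cnot3* (ENSMUSG00000035632.18, GRCm39 chr7:3648023-3664713, plus strand) had 63.2, 66.5 and 69.0 CPM in *Mov10* Deletion, against 74.1, 71.9 and 72.4 CPM in WT, with no overlap. Its log2 fold change was -0.14 (SE 0.04, 95% interval -0.23 to -0.05, limma-trend adjusted p = 0.0414), and without the factors the adjusted p was 0.0586. This call was the least secure of the 3: it passed in 7 of 24 other settings, and with limma-trend it was lost without *Mov10* Deletion replicate 1 (adjusted p = 0.0668), WT replicate 1 (0.114) or WT replicate 2 (0.128). *Cnot1* had 228, 229.5 and 239.5 CPM in *Mov10* Deletion and 232, 234 and 253 CPM in WT. Its groups overlapped and its log2 fold change was -0.02 (95% interval -0.10 to 0.06, limma-trend adjusted p = 0.725).

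*Dcp2* is the gene of the cap-cleaving enzyme. *Dcp2* (ENSMUSG00000024472.11, GRCm39 chr18:44513547-44558036, plus strand) had 77.3, 61.9 and 67.6 CPM in *Mov10* Deletion, against 60.2, 55.3 and 52.7 CPM in WT. The groups did not overlap, although the lowest *Mov10* Deletion library was close to the highest WT library, and *Mov10* Deletion replicate 1 stood highest. The fitted level was 1.19-fold that of WT (log2 fold change 0.25, SE 0.04, 95% interval 0.15 to 0.35, limma-trend adjusted p = 0.0077; 0.0293 without the factors). Without *Mov10* Deletion replicate 1 the log2 fold change was 0.18 (limma-trend adjusted p = 0.0095 with factors and 0.0561 without them). *Dcp2* passed in 17 of 24 other settings, and with the score of sex-linked genes in place of the factors its log2 fold change was 0.16 (limma-trend adjusted p = 0.166). Per length the gap was smaller: TPM was 34.3, 30.04 and 35.2 in *Mov10* Deletion and 31.5, 27.3 and 24.9 in WT, where the groups overlapped, and with counts scaled from TPM the limma-trend adjusted p was 0.0518. *Dcp2* has a pair of annotated transcripts, of 8663 and 420 nucleotides. The long one, Dcp2-201, had 23.4, 18.5 and 21.0 TPM in *Mov10* Deletion and 18.9, 17.1 and 15.8 TPM in WT, and the groups overlapped. The short one, Dcp2-202, held 36.9% of the *Dcp2* TPM in *Mov10* Deletion and 38.0% in WT. It had only 67 to 98.3 counts per library, of 4048 to 6313 for the gene. The TPM of *Dcp2* thus leaned heavily on a short transcript with few counts.

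*Dcp1a* encodes the DCP2 co-activator, *Edc4* the scaffold that holds decapping proteins together, and *Ddx6* the helicase shared by CCR4-NOT and the decapping complex. *Dcp1a* had 30.5, 24.9 and 27.2 CPM in *Mov10* Deletion and 26.0, 25.1 and 23.9 CPM in WT, with *Mov10* Deletion replicate 1 again the highest. Its log2 fold change of 0.10 (95% interval -0.01 to 0.21) did not pass (limma-trend adjusted p = 0.155). Without *Mov10* Deletion replicate 2 it was 0.17 and passed (limma-trend adjusted p = 0.0227), and without *Mov10* Deletion replicate 1 it was 0.04. The paralogue *Dcp1b* had 22.1, 21.9 and 24.95 CPM in *Mov10* Deletion, above 20.7, 20.4 and 21.5 CPM in WT, with a log2 fold change of 0.15 (limma-trend adjusted p = 0.125). *Dcp1a* made up 43.5% ± 2.09 (SD) of the TPM of this pair in 3 *Mov10* Deletion libraries and 43.8% ± 0.79 (SD) in 3 WT libraries (exact permutation p = 0.8). *Ddx6* had the highest CPM of the 10 genes and the tightest replicates: 424, 428 and 429 CPM in *Mov10* Deletion and 409, 408 and 413 CPM in WT. Its groups did not overlap, yet its log2 fold change was only 0.06 (95% interval -0.02 to 0.14, limma-trend adjusted p = 0.216). *Edc4* had 87.7, 95.7 and 95.1 CPM in *Mov10* Deletion and 96.2, 94.98 and 104 CPM in WT, with overlap and a log2 fold change of -0.06 (95% interval -0.14 to 0.03).

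*Xrn1*, the exonuclease at the end of the route, had 82.1, 82.7 and 89.0 CPM in *Mov10* Deletion and 86.5, 84.9 and 91.7 CPM in WT. The groups overlapped, and the log2 fold change was -0.03 (95% interval -0.14 to 0.07, limma-trend adjusted p = 0.633). In all, CPM did not overlap between groups for 2 of the 10 genes in the higher direction (*Ddx6* and *Dcp2*) and 3 in the lower (*Cnot3*, *Cnot7* and *Cnot8*), beside 20.4% and 21.2% of all tested genes.

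**Figure D2:**
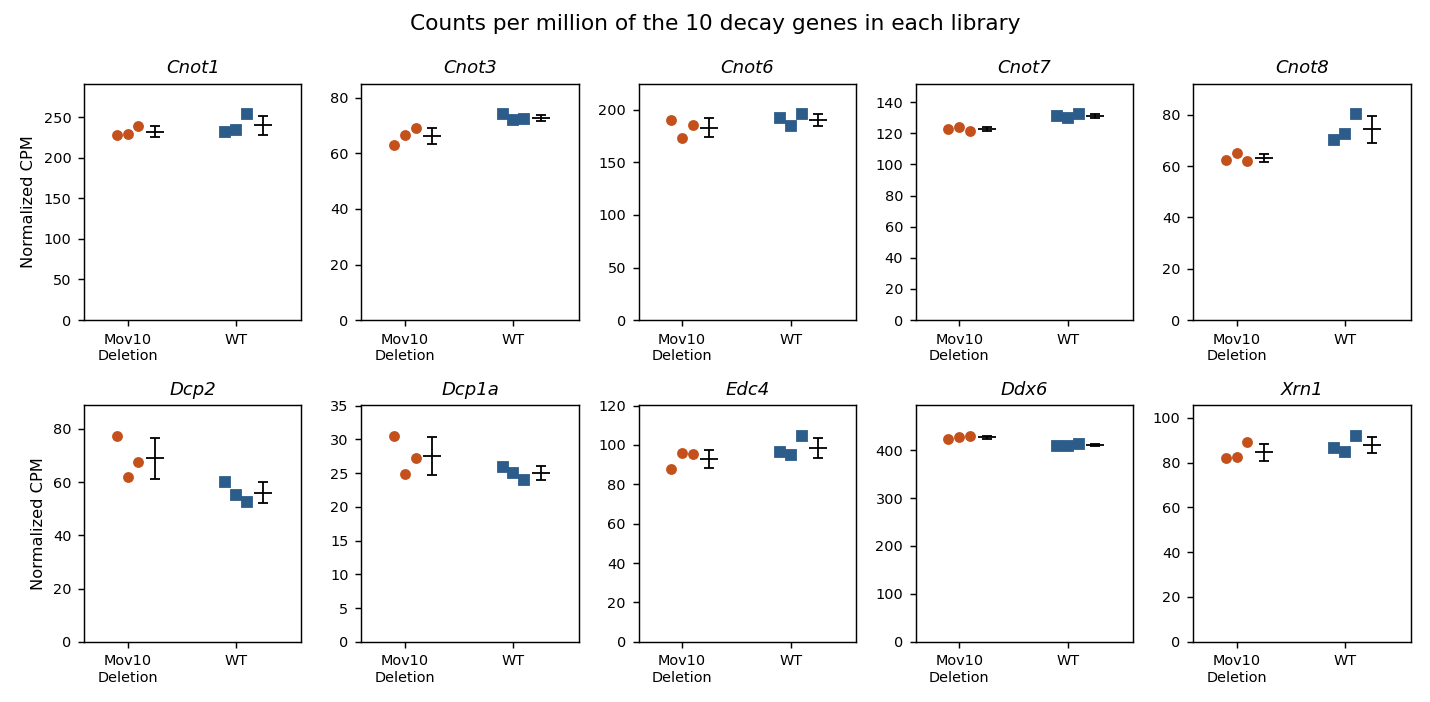
TMM-normalized CPM of the 10 genes, with *Mov10* Deletion (circles) left of WT (squares), 1 point per library in order of replicate number, and the mean with its SD (n = 3) beside the points; each axis starts at 0. All *Mov10* Deletion points lie below the WT points for *Cnot3*, *Cnot7* and *Cnot8* and above them for *Dcp2* and *Ddx6*.

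**Figure D3:**
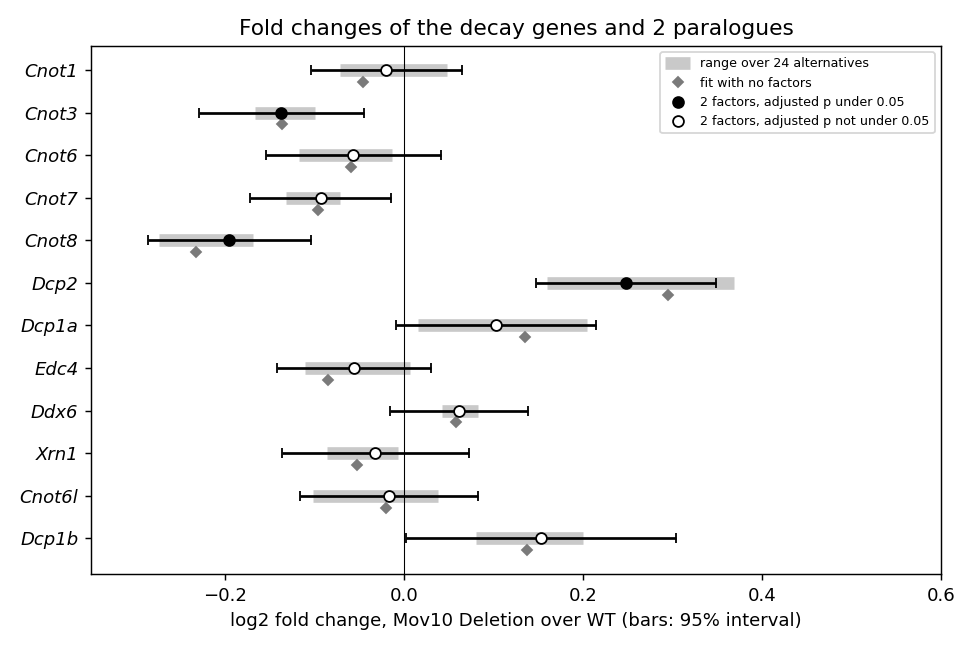
Fitted log2 fold change (*Mov10* Deletion over WT) with its 95% interval from limma-trend with 2 factors, the fit with no factors (diamonds) and the range over 24 other settings (grey bars) for the 10 genes and the paralogues *Cnot6l* and *Dcp1b*. Filled points, *Cnot3*, *Cnot8* and *Dcp2*, passed the test, and the grey bars cross 0 for *Cnot1*, *Edc4* and *Cnot6l*.

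The groups themselves were checked on *Mov10*, which had 2.45, 2.14 and 2.09 CPM in *Mov10* Deletion and 4.81, 4.75 and 4.80 CPM in WT (log2 fold change -1.11, limma-trend adjusted p = 0.0011; -0.67 with counts scaled from TPM). Library totals were 71400300 to 80575759 estimated counts in *Mov10* Deletion and 76157768 to 86207971 in WT, and the least abundant of the 10 genes, *Dcp1a*, had between 1841 and 2490 of them in each library. Markers of other cell types moved between the groups. Of the astrocyte markers, 3 of 7 were higher in *Mov10* Deletion, with summed TPM of 631 to 701 in *Mov10* Deletion and 514 to 620 in WT, and 5 of 8 markers of proliferating progenitors were lower and 1 higher (332 to 382 TPM in *Mov10* Deletion, 373 to 385 TPM in WT). The 8 markers listed for hippocampal excitatory neurons included *Snap25* and *Tubb3*, which other neurons also express. Of these 8, 2 were higher (*Zbtb20* and *Snap25*), and none was at 0 in every library. The 8 summed to 2580 to 2728 TPM in *Mov10* Deletion and 2600 to 2642 TPM in WT, with *Tubb3* alone at a mean of 1352 TPM. Interneuron markers had 1 of 6 higher and 1 lower (266 to 315 TPM in *Mov10* Deletion, 278 to 296 TPM in WT), endothelial and pericyte markers 1 of 6 higher and 2 lower (220 to 266 TPM in *Mov10* Deletion, 229 to 256 TPM in WT), and microglial markers 0 of 6 by limma-trend, edgeR and DESeq2 and 1 of 6 at an unadjusted p under 0.05, at 48.3 to 69.2 TPM in *Mov10* Deletion and 45.1 to 66.5 TPM in WT. Choroid plexus markers were lower for 1 of 5 by limma-trend with the factors, with the widest relative spread (3.27 to 112 TPM in *Mov10* Deletion, 14.2 to 35.5 TPM in WT), and erythroid markers for 3 of 6, or 1 without the factors (1209 to 1709 TPM in *Mov10* Deletion, 1374 to 1760 TPM in WT). Mitochondrially encoded mRNAs were higher for 11 of 13 (5 without the factors and 4 by DESeq2), with 63341 to 66834 TPM in *Mov10* Deletion and 46736 to 62899 TPM in WT. The part of these shifts in the results was not tested, and in bulk tissue fewer cells of a type and less RNA per cell cannot be told apart.

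The 10 genes also stand within a wider pathway, for which 7 lists with 93 genes in all were drawn up by function. All 93 were tested: 2 were higher and 16 lower in *Mov10* Deletion (19.4%, beside 24.7% of all genes), with a median log2 fold change of -0.04. Outside the 10 genes, 1 was higher and 14 lower of 83, beside 12.6% and 12.1% of all genes in the 2 directions. Without the factors, limma-trend called 13 of the 93 and 11 of the 83, beside 21% of all genes. CCR4-NOT itself had 2 of 11 subunits lower, *Cnot8* and *Cnot3*. Of its other subunits, *Cnot2* had a log2 fold change of -0.09 and *Cnot10* of 0.09, and neither passed (limma-trend). *Cnot10* was the only 1 of the 11 with a positive log2 fold change, and the median was -0.08. CPM did not overlap between groups for 6 of the 11 in the lower direction and 1 in the higher. Over all tested genes these shares were 21.2% and 20.4%.

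The RNA-binding proteins that bring CCR4-NOT to chosen mRNAs included *Samd4* and *Pum2*, both lower in *Mov10* Deletion. Of 14 such genes, 4 were lower, and the summed TPM of the list was 599 to 637 in *Mov10* Deletion, below 677 to 708 in WT. *Pum2* alone had 133 to 143 TPM in *Mov10* Deletion and 178 to 189 TPM in WT, so the gap in the sums rested largely on it. CPM did not overlap between groups for 6 of the 14 in the lower direction and 1 in the higher. Over all tested genes these shares were 21.2% and 20.4%. *Samd4* encodes a Smaug-type protein, a family that in flies recruits the deadenylase to stem-loop elements. It had 17.4, 15.9 and 16.1 CPM in *Mov10* Deletion, against 23.6, 23.6 and 22.7 CPM in WT (log2 fold change -0.52, SE 0.05, limma-trend adjusted p = 0.0013). *Pum2*, a Pumilio gene, had 274, 274.5 and 274 CPM in *Mov10* Deletion, against 335.5, 337.5 and 365 CPM in WT (log2 fold change -0.31, SE 0.03, limma-trend adjusted p = 0.0019). The groups overlapped for neither of these genes, and each passed in all 24 other settings. *Samd4b* also fell, with a log2 fold change of -0.12 (limma-trend adjusted p = 0.0400; 0.0553 without the factors), and passed in 10 of 24. Its call was lost without *Mov10* Deletion replicate 1 (limma-trend adjusted p = 0.0626), WT replicate 1 (0.0726) or WT replicate 2 (0.131).

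Genes of poly(A) tail binding and extension included 3 of 13 lower and 1 higher. *Paip1*, which encodes a partner of the poly(A)-binding protein that promotes translation, had 84.5, 84.7 and 83.4 CPM in *Mov10* Deletion, against 98.3, 99.1 and 102.9 CPM in WT (log2 fold change -0.24, SE 0.04, limma-trend adjusted p = 0.0043), and passed in all 24 other settings. *Paip2b*, whose protein counters poly(A)-binding protein, had a log2 fold change of -0.19, and *Pabpc1*, the main cytoplasmic poly(A)-binding protein gene, of -0.18 (limma-trend adjusted p = 0.0088 and 0.0112). *Pabpc1* had 420.1, 413 and 400.1 CPM in *Mov10* Deletion, against 472, 461 and 456 CPM in WT. With limma-trend its call was lost without WT replicate 2 (adjusted p = 0.0589). The gene that rose was *Tent5a*, of a family of non-canonical poly(A) polymerases, with 3.40, 1.72 and 2.31 CPM in *Mov10* Deletion, against 1.58, 1.48 and 1.44 CPM in WT. Its log2 fold change was 0.60 (limma-trend adjusted p = 0.0180), 0.39 without *Mov10* Deletion replicate 1 (0.0796) and 0.28 with the score of sex-linked genes (0.342). Without the factors it did not pass (limma-trend adjusted p = 0.0575).

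**Figure D4:**
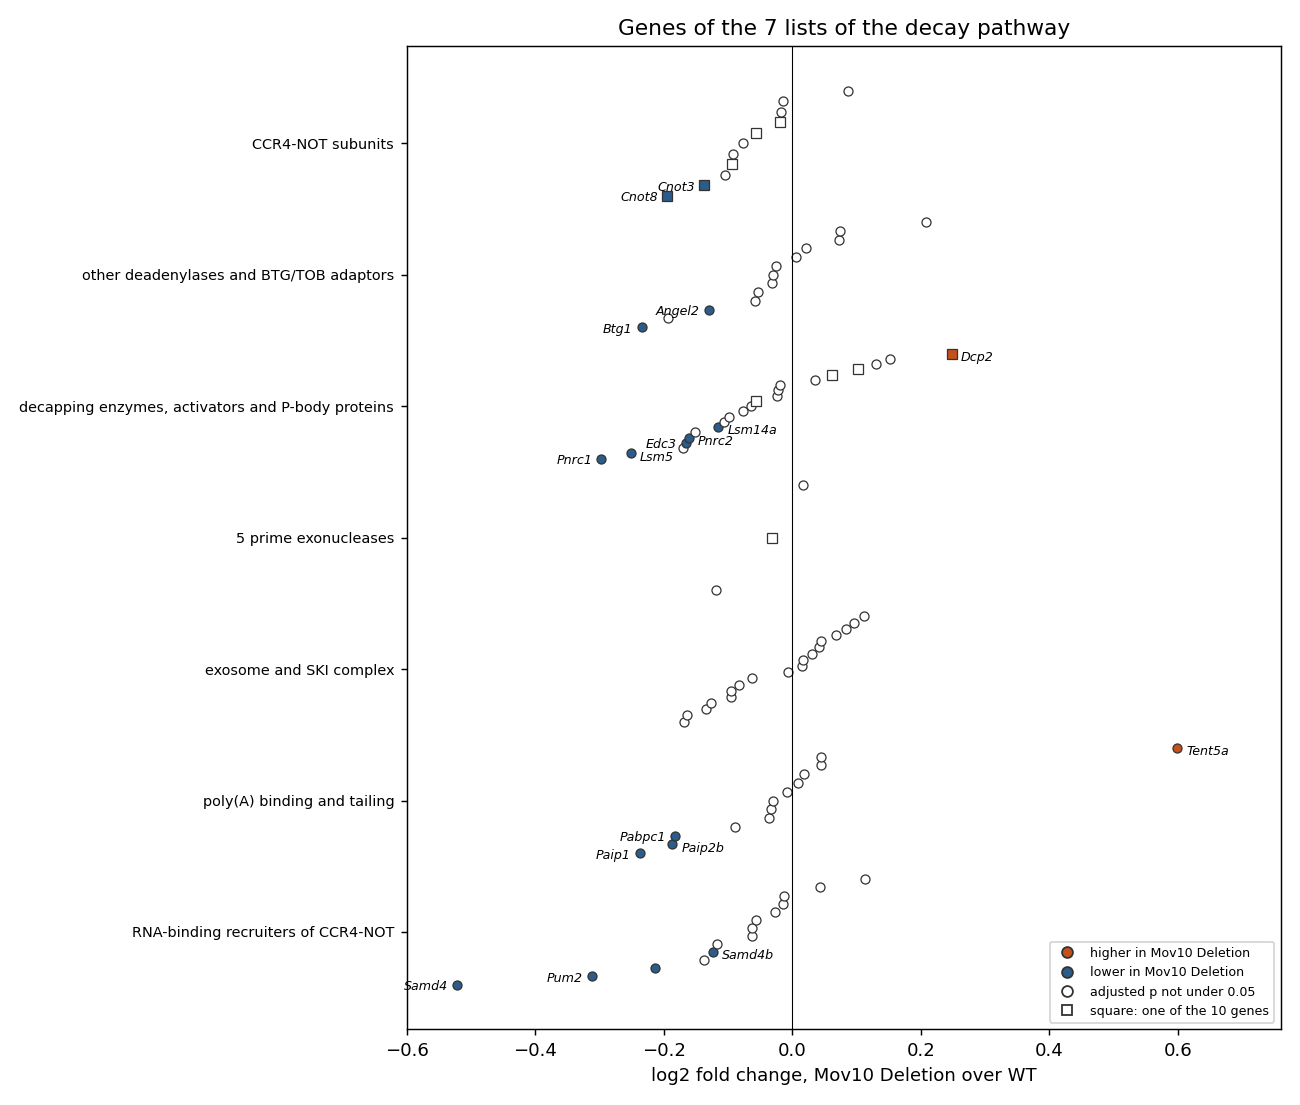
Log2 fold change (*Mov10* Deletion over WT, limma-trend with 2 factors) of the 93 genes in 7 lists, each point 1 gene, squares for the 10 genes and filled points for those that passed, of which most are named. Of the filled points, 16 lie on the lower side and 2, *Dcp2* and *Tent5a*, on the higher side.

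In the list of decapping enzymes, activators and P-body proteins, *Dcp2* was the 1 gene of 21 that rose, while 5 fell. *Pnrc1*, which has been described as a DCP1 partner, had 28.3, 21.3 and 24.2 CPM in *Mov10* Deletion and 29.5, 28.9 and 33.2 CPM in WT (log2 fold change -0.30, limma-trend adjusted p = 0.0125). *Lsm5*, of the LSM ring that binds shortened tails and aids decapping, had a log2 fold change of -0.25 (limma-trend adjusted p = 0.0304), and the decapping enhancer gene *Edc3* of -0.17 (adjusted p = 0.0355). *Pnrc2* (-0.16) and *Lsm14a* (-0.12) were just under the threshold at limma-trend adjusted p = 0.0379 and 0.0495, and neither passed without the factors (0.111 and 0.0977). With limma-trend the calls of *Lsm5*, *Edc3* and *Lsm14a* were lost without WT replicate 2 (adjusted p = 0.118, 0.0557 and 0.201), that of *Lsm5* also without *Mov10* Deletion replicate 2 (0.0561), and that of *Lsm14a* also without *Mov10* Deletion replicate 3 (0.0684) or WT replicate 1 (0.138). The call of *Pnrc2* was lost without *Mov10* Deletion replicate 3 (limma-trend adjusted p = 0.0815) or WT replicate 1 (0.0645), and the log2 fold change of *Pnrc1* was -0.20 without *Mov10* Deletion replicate 2 and -0.46 with the score of sex-linked genes.

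Of the other deadenylases and their adaptors, 2 of 13 genes were lower. *Btg1*, an antiproliferative adaptor gene whose protein binds the Caf1-type nucleases, had 101, 91.1 and 97.9 CPM in *Mov10* Deletion, against 112, 111 and 122 CPM in WT (log2 fold change -0.23, limma-trend adjusted p = 0.0084), and passed in 23 of 24 other settings. *Angel2*, a relative of the Ccr4-type nucleases, had a log2 fold change of -0.13 (limma-trend adjusted p = 0.0368) and passed in 11 of 24, with the call lost without *Mov10* Deletion replicate 1 (0.0508) or WT replicate 2 (0.122), while *Angel1* stood at 0.21 and did not pass (adjusted p = 0.0636).

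At the 3′ end of the body, none of 18 exosome and SKI complex genes passed by limma-trend. Of these, 6 had an unadjusted p under 0.05, all lower in *Mov10* Deletion, edgeR's quasi-likelihood test called 0 and DESeq2 called 2. None of the 3 genes of 5′ exonucleases passed by limma-trend, edgeR or DESeq2, with 1 at an unadjusted p under 0.05. That gene was *Dxo*, of a decapping exonuclease, with a log2 fold change of -0.12. *Xrn2*, the nuclear counterpart of *Xrn1*, stood at 0.02 and had the other sign in 13 of 24 other settings.

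**Figure D5:**
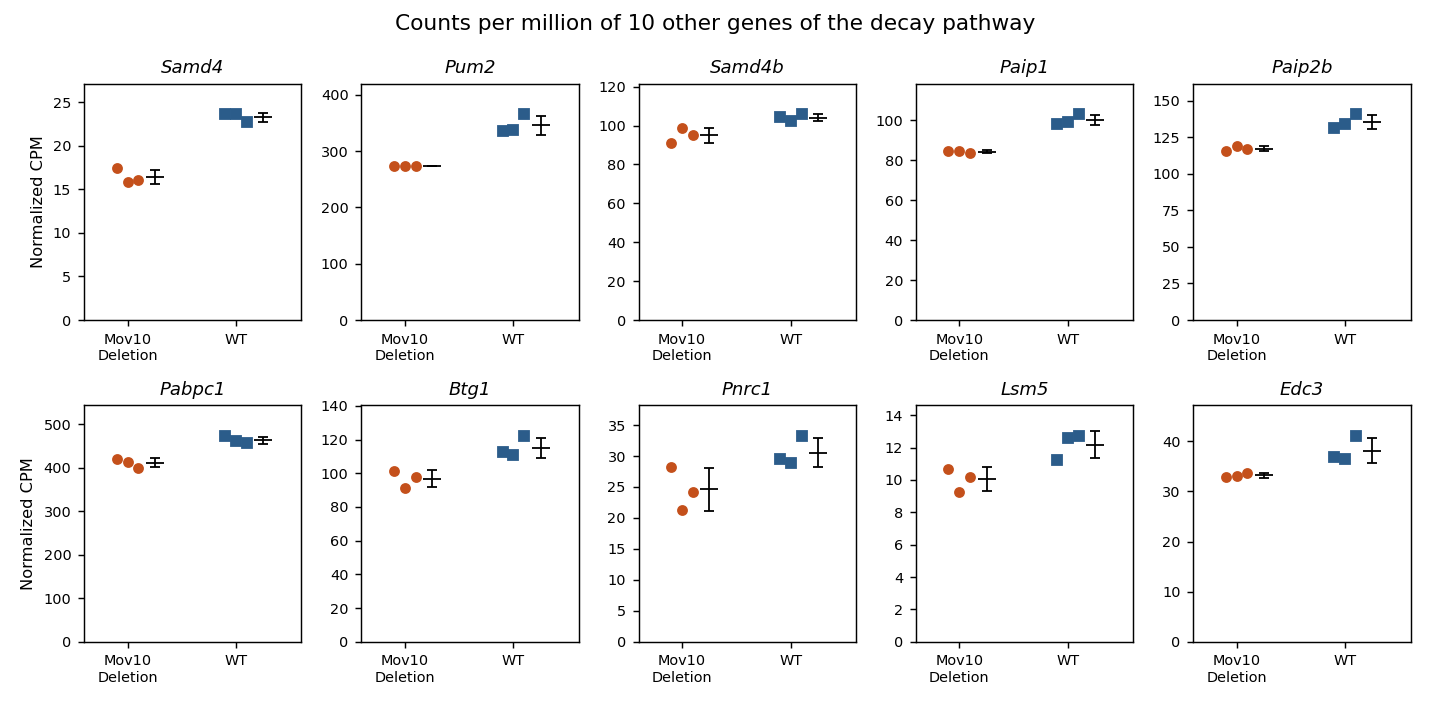
TMM-normalized CPM of 10 genes of the wider pathway that passed, with *Mov10* Deletion (circles) left of WT (squares), 1 point per library in order of replicate number, and the mean with its SD (n = 3); each axis starts at 0. All *Mov10* Deletion points lie below the WT points, and *Pum2* has the closest *Mov10* Deletion replicates, between 273.8 and 274.5 CPM.

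Pumilio proteins bind the element UGUANAUA and bring CCR4-NOT to the mRNA. Since *Pum2* fell, the most abundant transcript of each of the 10 genes was searched for TGTANATA on its sense strand, downstream of the stop codon. The element was present in 6 of the 10 genes, beside 29.2% of 13855 coding genes searched in the same way. *Cnot7*, *Ddx6* and *Dcp1a* held 2 each and *Cnot1*, *Cnot8* and *Dcp2* held 1, and *Cnot3*, *Cnot6*, *Edc4* and *Xrn1* held none. The 10 genes include several with long untranslated ends (7240 bases in *Dcp2* and 363 in *Edc4*, with a median of 1393 over coding genes), and long ends hold the element more often: among those within 20% of the length in *Ddx6* (4250 bases) it was found in 51.5%, against 21.3% at the length in *Cnot8* (1006 bases). The sites are shown for the Caf1-type nuclease genes and *Ddx6*, with the element in capitals and GRCm39 positions.
Cnot8 chr11:58009355-58009382 plus strand: ttaagatgctTGTAAATAttatttatgt
Cnot7 chr8:40946962-40946989 minus strand: cacacatgctTGTATATAggttttatca
Cnot7 chr8:40945595-40945622 minus strand: ttaaagctttTGTAAATAaaggcttcaa
Ddx6 chr9:44548451-44548478 plus strand: ccatccacacTGTACATAcatgtattta
Ddx6 chr9:44548732-44548759 plus strand: gtataaacttTGTAAATAagtttttttt
The sites of *Cnot1*, *Dcp1a* and *Dcp2* are not shown. A match of letters is not a measured binding site.

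Transcript usage was tested next, that is, whether the transcripts of a gene changed relative to each other (limma diffSplice with the 2 factors). It passed for 786 of 10338 genes (7.6%) and for 2 of the 10, *Cnot1* (limma diffSplice adjusted p = 0.0372) and *Dcp1a* (0.0312). Neither passed without the factors (0.226 and 0.412). In *Cnot1* the transcript with the smallest usage p was Cnot1-212, annotated as a target of nonsense-mediated decay, which had 6.92, 5.01 and 11.1 TPM in *Mov10* Deletion and was listed at 0 in WT replicates 1 and 2 and at 7.83 TPM in WT replicate 3. In *Dcp1a* it was Dcp1a-209, of the same annotated class, listed at 0, 0.197 and 0.215 TPM in *Mov10* Deletion, against 0.169, 0.278 and 0.705 TPM in WT. Both transcripts overlapped between the groups. Cnot1-216, of that class too and picked after its values were seen, had 6.69, 7.59 and 5.91 TPM in *Mov10* Deletion, against 11.995, 11.1 and 8.73 TPM in WT. The groups did not overlap for it, but its level did not pass (log2 fold change -0.68, limma-trend adjusted p = 0.0926), nor did its usage (limma diffSplice adjusted p = 0.555). The main coding transcripts made up similar shares in both: Cnot1-202 held 37.1% of the *Cnot1* TPM in *Mov10* Deletion and 36.8% in WT, and Dcp1a-201 held 84.4% of the *Dcp1a* TPM in *Mov10* Deletion and 82.0% in WT. *Cnot8* was nearly all 1 transcript, Cnot8-201, with 72.9, 74.2 and 72.9 TPM in *Mov10* Deletion, below 83.8, 85.1 and 90.6 TPM in WT. The usage calls of *Cnot1* and *Dcp1a* depended on single libraries: leaving out 1 at a time moved the diffSplice adjusted p of *Cnot1* between 1.359e-06 (without WT replicate 3) and 0.435 (without WT replicate 2), and that of *Dcp1a* between 0.0071 (without WT replicate 1) and 0.404 (without *Mov10* Deletion replicate 1).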

How the data were processed

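The authors quantified the reads of 6 libraries with Salmon 1.4.0, using mouse transcripts with the GRCm39 genome as decoy; the sources used here give no annotation release. The estimated counts the authors deposited are unnormalized and need not be whole, and the TPM values in the authors' files are corrected by Salmon for effective length and library size. Transcripts were matched to GENCODE M39 (137570 of 139225; the rest held 0.589% to 0.600% of counts) and summed per gene. Library totals lay between 71400300 and 86207971 estimated counts. Genes with 0.25 CPM or more in 3 libraries were kept.

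The test followed the methods of the study: TMM, limma-trend on log2 CPM (prior count 2), genotype and 2 factors of unwanted variation as covariates, and Benjamini-Hochberg adjustment over all tested genes at 0.05 (limma 3.58.1, edgeR 4.0.16, DESeq2 1.42.0, R 4.3.3). Neither the RUVSeq function nor the prior count is given by the study. RUVs with all tested genes as controls, written out in R, and a prior count of 2 were chosen here. The fit has 2 residual degrees of freedom, and its test is moderated: the variance of each gene is drawn towards that of genes of like level (5.89 prior degrees of freedom). Its p-values thus measure only the spread between pools that the factors leave, taken partly from the other genes. CPM values carry no factor correction. The diffSplice function of limma served for transcript usage, and paralogue shares were compared by an exact permutation test over libraries. Alternatives covered the factors, a score of sex-linked genes, edgeR and DESeq2, normalization, filter, prior count, counts scaled from TPM, a replicate block and leaving out each library.

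The text names the 10 genes, *Cnot6l*, *Dcp1b*, *Mov10*, the 3 genes with the smallest p of each list, and for each of the 10 genes its main transcript, the transcript with the smallest usage p and the gene most like it; not all are given, and 1 gene of the lists is not reported here. Other genes of the lists were named after their values were seen. The 10 genes and all lists were chosen with earlier results of these data known. Both strands can hold genes here: *Cnot8* overlaps *Gemin5*, *Cnot3* overlaps *Leng1*, *Cnot7* overlaps *Vps37a* and *Dcp1a* overlaps *Cacna1d*, each on the opposite strand, and the sources used here do not say whether Salmon counted with strand.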

Additional observations from a re-analysis of the deposited data

How the results depend on the processing

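The 24 alternatives refit the same libraries, so a kept direction is not independent support for a call. No called gene of the 10 or of the 7 lists changed direction in any of them. Of the other genes followed through them, *Xrn2* did so in 13, *Cnot6l* in 4, *Cnot1* in 2, and *Edc4* and *Dxo* in 1 each. *Cnot2* and *Cnot10* were not followed. With a score of sex-linked genes as the covariate, 1364 genes were called over all genes, 8 in the lists and 0 among the 10 genes; with no filter on low counts, these were 925, 4 and 0. These counts of 0 are by limma-trend, and edgeR and DESeq2 were not run in those settings; with the filter and no covariate, edgeR called 2 of the 10 and DESeq2 3. In the limma-trend fit with factors 4 of the 10 had an unadjusted p under 0.05. Leaving out 1 library with the factors re-estimated gave 2803 to 5797 genes, 12 (without WT replicate 2) to 28 (without *Mov10* Deletion replicate 2) in the lists and 2 to 5 of the 10. Without factors, leaving out *Mov10* Deletion replicates 1, 2 and 3 in turn gave 3036, 2363 and 2020 genes, 11, 11 and 6 in the lists, and 1, 2 and 0 of the 10. Leaving out WT replicates 1, 2 and 3 gave 2924, 1801 and 1768 genes, 12, 7 and 8 in the lists, and 2, 1 and 1 of the 10. Transcript usage passed for 141 genes without WT replicate 2, 285 without WT replicate 3, 838 without *Mov10* Deletion replicate 2, and 464 with the replicate block. The sources used here do not say whether the replicate numbers pair the libraries. Deviations of same-numbered libraries from their group means correlated at 0.01, -0.07 and 0.04, and not every library correlated best with its own number. With 3 libraries per group, whose deviations depend on each other, these values cannot decide it. With the replicate block and no factors, 3425 genes, 12 of the lists and 2 of the 10 were called. The causes were not tested. Each of the 10 genes had at least 1841 counts in every library, whereas genes far below 1 CPM rest on few.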

Other observations

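For each of the 10 genes, the gene with the most similar log2 CPM over the 6 libraries was looked up among the 14425 genes that averaged 1 CPM or more. For *Xrn1* it was *Pan2*, which encodes the nuclease of the other main cytoplasmic deadenylase (Pearson r = 0.993, n = 6). For *Dcp2* it was *Cyb5r4*, for *Cnot8* it was *Zdhhc16* and for *Cnot3* it was *Kat6a*. The 6 libraries are shared by all these genes and fall into 2 groups, so such likeness is common: between 29 genes (for *Cnot6*) and 809 genes (for *Cnot8*) had an r over 0.95. Among the 10 genes, *Dcp2* and *Dcp1a* varied most alike, with an r of 0.947, followed by *Cnot7* and *Cnot8* with 0.932 and *Cnot1* and *Xrn1* with 0.931. These values are descriptions with no test.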
